A study of Mus musculus with 16 samples.

Results

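The chromatin of parental mouse embryonic stem cells (ESCs) was compared with that of the embryoid bodies grown from them, using the peak lists of the 2 parental ESC libraries and the 2 parental embryoid body libraries. These are 4 of the 16 lists of the series. They were taken by the stage and genotype given in their labels. All 4 come from the same Rx:GFP knock-in line, in which a GFP reporter sits at Rax (also called Rx), and the labels call its genotype parental. The ESCs were kept in 2i+LIF, a medium that holds cells in the naive state. The embryoid bodies are labelled day 4 and were made by the SFEBq method, a serum-free aggregate culture that favours neural and retinal fates, in GMEM with 5% KSR and with 2% matrigel added on day 1. The assay was ATAC-seq, in which a transposase inserts adapters into open DNA, with transposition at 37 °C for 30 min. The other 12 lists, used here only to look up regions, are 10 ESC lists and 2 embryoid body lists. The 10 ESC lists are 2 of each kind: the p53 knockout clone C9, the p53 knockout clone H9, and ESCs that lack both Wdr5 and p53 and carry a stable plasmid, either the backbone, wild-type WDR5 (WDR5WT) or WDR5S91K-Y191F. The 2 embryoid body lists are from Wdr5 and p53 double knockout cells, and their labels give no day. The clones C9 and H9 are each a single clone. Nothing in the labels states whether replicates came from separate cultures, and the p-values below reflect only how these libraries spread, which may be technical.

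As background, naive ESCs are held by a network of transcription factors that includes Nanog, Esrrb, Klf2, Klf4 and Tfcp2l1. When 2i and LIF are withdrawn, cells pass through a formative state marked by Fgf5, Otx2 and Dnmt3b before they take up lineage fates. In SFEBq culture the route leads to anterior neuroectoderm and the eye field, whose regulators include Rax, Six3, Six6, Lhx2 and Pax6. In this kind of transition promoters rich in CpG often stay open while distal enhancers are exchanged.

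The lists differed widely in length, which limits every count below. The parental ESC lists held 24367 and 5330 peaks on chromosomes 1 to 19, X and Y, and the embryoid body lists held 90436 and 75673. The mean log10 peak number was 4.06 ± 0.467 in ESCs and 4.92 ± 0.0547 in embryoid bodies (SD, n = 2 each), a difference of 0.861. The ranges did not overlap, but an exact two-sided permutation test gave p = 0.333, the smallest that 2 libraries against 2 allow. The files give no read counts, so the depth is unknown. The ESC and embryoid body files also differ in format: the column used to rank peaks holds a signal of unstated scaling in ESC lists and a fold enrichment in embryoid body lists. Values of the ranking column were therefore never compared between stages, and stage and peak calling cannot be told apart. The ESC lists overlapped unevenly: 91.1% of the peaks of ESC replicate 2 were in replicate 1, and 19.9% of those of replicate 1 were in replicate 2. Of the embryoid body peaks, 63.5% of replicate 1 were in replicate 2 and 76.2% of replicate 2 were in replicate 1.

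Most regions seen in both replicates of a stage were found in the embryoid bodies alone. After merging peaks that overlapped by at least 1 bp, the 4 lists gave 116367 regions. Of these, 42523 had a peak in both embryoid body lists and neither ESC list (36.5% of all regions), and 1653 had a peak in both ESC lists and neither embryoid body list (1.42%). A further 3006 were in all 4 lists. Another 11394 regions were in both embryoid body lists and ESC replicate 1 but not in the short list of ESC replicate 2. Without ESC replicate 2 the number of ESC-only regions was 8171 and that of regions in every list 14402, and without embryoid body replicate 2 the number of embryoid-body-only regions was 74969.

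At equal list length the stages were nearly even. When each list was cut to its 5330 highest peaks, the length of the shortest list, 12374 regions remained. Of these, 2244 were found only in ESCs (18.1%), 2509 only in embryoid bodies (20.3%) and 784 in all 4. Much of this difference was one of rank and not of presence. Among the 2244 ESC-only regions, 1175 had a peak in both full embryoid body lists, and 65.1% of those 1175 lay at gene ends. Among the 2509 embryoid-body-only regions, 1302 had a peak in the full list of ESC replicate 1. The regions that were high in the lists of their stage and absent from the full lists of the other numbered 1013 for ESCs and 1207 for embryoid bodies.

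**Figure D1:**
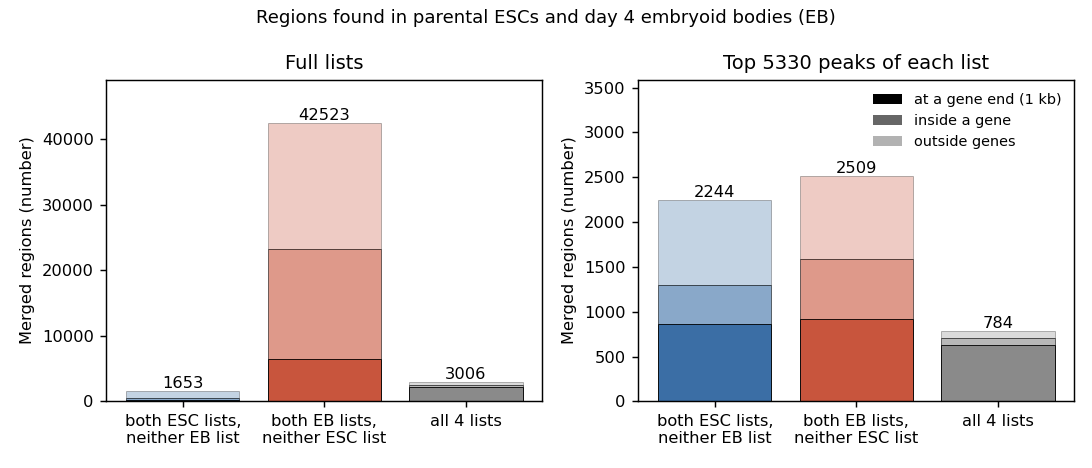
Number of merged regions found only in parental ESCs, only in parental embryoid bodies (EB) or in all 4 lists, from full lists (left) and from the 5330 highest peaks of each list (right). Each bar is split by position: within 1 kb of a protein-coding gene end (darkest), inside a gene, or outside genes (lightest). The full lists give 1653 ESC-only and 42523 EB-only regions, and the equal lists 2244 and 2509.

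The regions of all 4 lists lay mostly at gene ends, and stage-only regions did not. A gene end here is the 1 kb on either side of the first or last base of a protein-coding gene, since the gene table gives no strand. Of the regions in all 4 lists, 71.2% lay at a gene end, against 15.3% of embryoid-body-only and 9.92% of ESC-only regions and 14.7% of all regions. Of the embryoid-body-only regions, 39.5% lay inside genes and 45.2% outside them, and of the ESC-only regions 21.4% and 68.7%. Median widths were 481 bp for embryoid-body-only, 981 bp for ESC-only and 1119 bp for regions in all 4 lists. Per list, 34.7% and 44.2% of ESC peaks were at gene ends (39.4% ± 6.72, SD, n = 2), against 17.5% and 20.0% of embryoid body peaks (18.7% ± 1.72, SD, n = 2; exact permutation p = 0.333). At equal list length the difference was 0.629 points, less than the spread between replicates: the shares were 47.0% and 44.2% in ESCs (45.6% ± 1.96) and 43.3% and 49.1% in embryoid bodies (46.2% ± 4.15, SD, n = 2 each; exact permutation p = 1).

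The lists that the definition did not use separated the stages in the same direction. Of the embryoid-body-only regions, 72.1% and 80.6% had a peak in the 2 double knockout embryoid body lists, and 0.0141% to 22.8% had a peak in the 10 other ESC lists. Of the ESC-only regions, 2.78% and 4.54% had a peak in the double knockout embryoid body lists, and 24.8% to 91.3% in the 10 other ESC lists. The share of embryoid-body-only regions minus the share of ESC-only regions was 69.3 and 76.1 percentage points in the 2 embryoid body lists (72.7 ± 4.76, SD, n = 2). It was -88.7 to -4.20 points in the 10 ESC lists (-30.9 ± 29.2, SD, n = 10). The difference of 104 points passed the exact two-sided permutation test (p = 0.0152, the smallest that 2 lists against 10 allow). With regions taken from the 5330 highest peaks of each parental list, and the 12 other lists searched in full, it was 63.5 points (p = 0.0152, exact), although the WDR5WT ESC lists then held slightly more embryoid-body-only than ESC-only regions, by 0.762 and 2.70 points. The 12 lists are 6 pairs of replicates, so they are not 12 independent cultures. The 2 double knockout embryoid body lists (78106 and 93646 peaks) also have the format of the parental embryoid body lists and a like length. The 10 ESC lists hold 1535 to 32709 peaks in the ESC format. The test therefore cannot tell stage from list length and peak calling. Against the 4 p53 knockout ESC lists alone the difference was 84.5 points, and no p under 0.0667 is possible there.

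**Figure D2:**
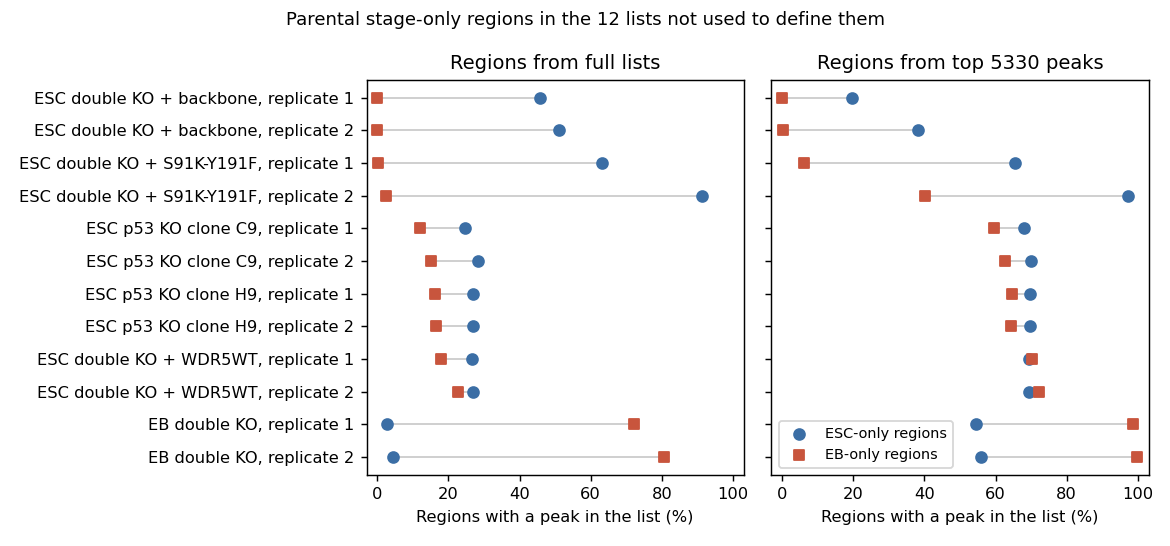
Share of ESC-only regions (circles) and EB-only regions (squares) of the parental lists that have a peak in each of the 12 other lists, for regions from full lists (left) and from the 5330 highest peaks (right). The 12 lists are searched in full in both panels. KO is knockout. In the full lists squares lie right of circles in the 2 embryoid body lists (72.1% and 80.6%) and left of them in all 10 ESC lists.

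Embryoid body markers had end peaks mostly in the embryoid body lists, and ESC markers had them in both stages, in lists whose length also differed. Of 12 naive and core pluripotency markers, 10 had an end peak in ESC replicate 1, 4 in ESC replicate 2 and 11 in each embryoid body list. The 4 in ESC replicate 2 were Nanog, Klf2, Tbx3 and Zfp42. Dppa3 had an end peak in none of the 4 lists, and Esrrb had one in the embryoid bodies alone. Of 12 formative, neural and eye field markers, 5 had an end peak in ESC replicate 1, 1 (Zic2) in ESC replicate 2 and all 12 in each embryoid body list. The 7 without a peak in ESC replicate 1 were Otx2, Dnmt3b, Sox1, Sox11, Six3, Lhx2 and Pax6. These 7 had embryoid-body-only end peaks, as had 24.9% of all protein-coding genes. The share of all genes with an end peak in each single list was not counted, so the marker counts lack a base. Markers of other cell types also had end peaks in the embryoid body lists: 5 of 7 fibroblast markers in each list, 5 of 6 mesoderm markers in each, 4 and 5 of 6 trophectoderm markers and 4 of 6 endoderm markers in each. In the ESC lists the same sets had 2 of 7, 2 of 6, 2 of 6 and 3 of 6 end peaks in replicate 1 and none in replicate 2. Col3a1 and Prrx1 (fibroblast), Gata4 (endoderm) and Tbx6 (mesoderm) had none in any parental list. An end peak does not show that a gene is expressed, and the part of other cell types in these lists was not tested.

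**Figure D3:**
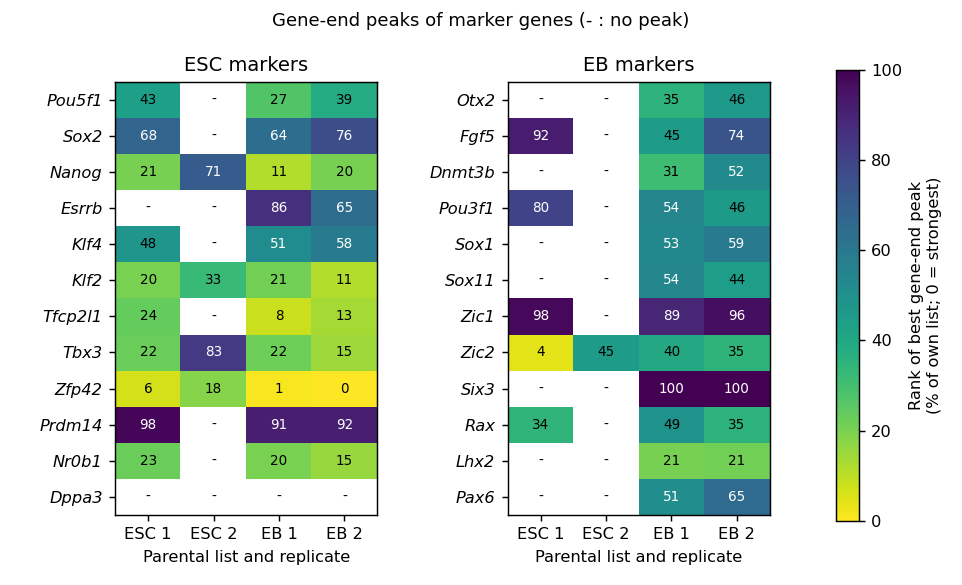
Rank of the strongest gene-end peak of 12 ESC and 12 embryoid body (EB) markers in the 4 parental lists, as a percent of the list's own length (0 is the strongest peak, a dash is no peak). Otx2, Dnmt3b, Sox1, Sox11, Six3, Lhx2 and Pax6 have a peak in both EB lists and in neither ESC list, and Zfp42 ranks near the top of the EB lists.

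Rax, the gene that carries the reporter, had an end peak in ESC replicate 1 (signal 661), none in ESC replicate 2, and fold enrichments of 3.49 and 3.96 in the embryoid bodies. All 6 lists of clones C9, H9 and WDR5WT ESCs also had a peak at its ends. Pou5f1 (OCT4), the core pluripotency factor, had an end peak in ESC replicate 1 (signal 543), none in replicate 2 and enrichments of 4.21 and 3.85 in the embryoid bodies. Sox2, which acts in both pluripotent and neural cells, had a signal of 340 in ESC replicate 1, no end peak in replicate 2 and enrichments of 3.17 and 3.03. Trp53 had a signal of 474 in ESC replicate 1, no end peak in replicate 2 and enrichments of 4.16 and 4.46. These 4 genes thus had a peak in ESC replicate 1 and in both embryoid body lists. Wdr5 had no end peak in the parental ESC lists and enrichments of 4.60 and 4.27 in the embryoid bodies, and 1 of the 6 lists of C9, H9 and WDR5WT ESCs had one.

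Gene ends were counted in the same way. Of 21887 protein-coding genes, 2551 had an end peak in all 4 lists, 5443 in both embryoid body lists only (24.9%), 131 in both ESC lists only (0.599%) and 6603 in none. Without ESC replicate 1 the embryoid-body-only number was 11416, and without ESC replicate 2 the ESC-only number was 337. At equal list length 1014 genes had an end peak in ESCs only (4.63%) and 1010 in embryoid bodies only (4.61%). Of the 5443 genes, 1802 had an end peak in none of the 12 ESC lists of the series (8.23% of all genes), and 1371 of those had one in both double knockout embryoid body lists.

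The share of genes with an embryoid-body-only end peak differed between the gene lists. In the primitive streak and mesoderm list, 22 of 32 genes (68.8%) had such an end peak, against 24.9% of all protein-coding genes. The shares were 15 of 23 for trophectoderm and surface ectoderm, 13 of 23 for cell adhesion and epithelium, 16 of 29 for formative and primed pluripotency, 17 of 33 for the Wnt pathway and 20 of 39 for the Hox clusters. They were 14 of 30 for the eye field and retinal progenitor list and 19 of 42 for neuroectoderm and neural progenitors. Naive pluripotency had 4 of 38 (Esrrb, Sox15, Tdh and Zfp296) and core pluripotency 3 of 22 (Foxd3, Lin28a and Trim71). Ribosomal protein genes had 12 of 75, and the COMPASS and MLL subunits, the complexes that hold WDR5, had 8 of 20. Among the 23 lists the single gene with an ESC-only end peak was Eef2, an elongation factor of translation.

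The peaks behind the shares of the developmental lists were not among the highest of both embryoid body lists. At equal list length no gene of the primitive streak, eye field, neuroectoderm, formative, Hox or Wnt lists had an embryoid-body-only end peak, against 4.61% of all genes. Six3, an eye field regulator, had enrichments of 2.11 and 2.26 and stood 90206th of 90436 and 75384th of 75673 in its lists. Lhx2, which acts in forebrain and eye, had 4.59 and 4.58 and ranks of 18544 and 16104. Neither ESC list had a peak at the ends of these genes, nor did any other ESC list of C9, H9 or WDR5WT. The double knockout embryoid bodies had an end peak of Lhx2 in both lists. They had none of Six3 within 1 kb, though 1 of them had a peak overlapping the merged region of its end peak.

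Fewer genes met the definition when all 12 ESC lists had to lack the end peak. For the Hox clusters 15 of 39 genes did (38.5%), against 8.23% of all genes. The counts were 10 of 32 for primitive streak and mesoderm, 7 of 23 for trophectoderm, 6 of 20 for fibroblast and mesenchyme and 7 of 29 for formative and primed pluripotency. The 7 formative genes were Car14, Cldn6, Fgf8, Grhl2, Krt18, Otx2 and Sall2. For the eye field 5 of 30 did, among them Lhx2, Otx2 and Six3, and for neuroectoderm 3 of 42 (Fabp7, Lhx5 and Msi1), a share near that of all genes. Otx2 belongs here only by its window: its end peak in the embryoid bodies (3.89 and 3.65) lies in a merged region that also holds a peak of ESC replicate 1 just outside the 1 kb. Such a reach into an ESC peak was found at 95 of the 5443 genes.

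Examples show how far these gene ends were found in other ESCs. Of the Hox genes, which pattern the body axis, Hoxb2 had enrichments of 3.61 and 4.03. Of the Wnt ligands, Wnt5a had 3.74 and 4.06 and Wnt7b 3.20 and 3.37. At the ends of these 3 genes no ESC list had a peak and both double knockout embryoid body lists did. In the other lists any peak within 1 kb of a gene's ends is counted, whether or not it overlaps the parental peak. The Wnt inhibitors Sfrp1 (4.30 and 4.41) and Sfrp2 (3.76 and 4.30) had an end peak in all 6 lists of C9, H9 and WDR5WT ESCs, so they were found in ESCs outside the parental lists. Among the receptors of FGF, Fgfr4 (4.68 and 4.06) had an end peak in none of the 6 and Fgfr2 (4.05 and 3.71) in 4. Fabp7, a fatty acid binding protein of radial glia, had 5.25 and 5.83 and no end peak in any ESC list.

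The chromatin regulators with embryoid-body-only end peaks often had end peaks in other ESC lists too, as did such genes in general. Of all 5443 such genes, 1802 had an end peak in none of the 12 ESC lists. The COMPASS and MLL genes Kat8 (5.85 and 6.08), Kdm6a (6.25 and 6.60), an H3K27 demethylase, and Kmt2c (4.48 and 4.38), an H3K4 methyltransferase, had end peaks in all 6 lists of C9, H9 and WDR5WT ESCs. Rbbp5 (3.82 and 4.91), a partner of WDR5, had them in none. The end peak of Kdm6a, like that of Otx2, lies in a region that reaches a parental ESC peak. Dnmt3b, the de novo DNA methyltransferase of the formative state, had 4.06 and 3.49 and an end peak in 2 of the 6, and Tet1 (3.41 and 3.59), a 5-methylcytosine dioxygenase, in 1. All 8 COMPASS genes and all 4 of DNA methylation had an end peak in both double knockout embryoid body lists. The same share over all 5443 genes was not counted, so these counts do not set the regulators apart.

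**Figure D4:**
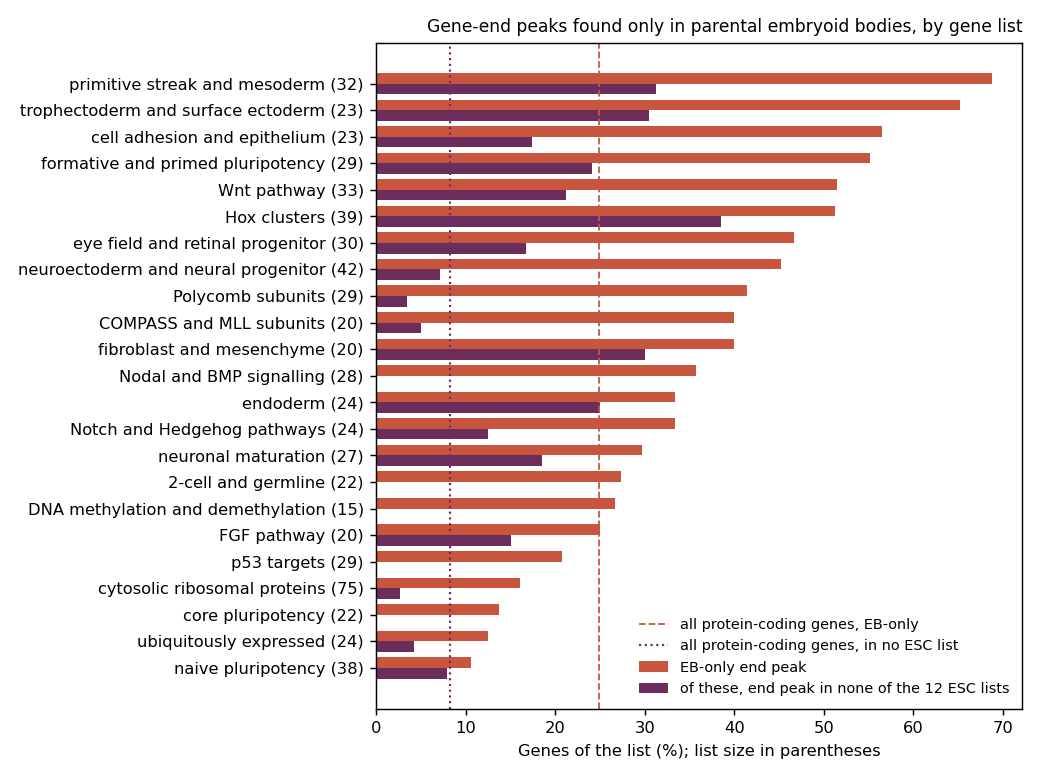
Percent of the genes of each list with an end peak in both parental embryoid body (EB) lists and neither parental ESC list (upper bars), and of those with no end peak in any of the 12 ESC lists (lower bars). The dashed and dotted lines are the same shares of all protein-coding genes (24.9% and 8.23%). Primitive streak and mesoderm has the longest upper bar (68.8%) and the Hox clusters the longest lower bar (38.5%).

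By rank, several naive pluripotency genes were found in ESCs only. At equal list length 7 of 38 naive genes had an end peak in ESCs only (Dusp6, Fbxo15, Jam2, Klf2, Klf5, Nanog and Trim28), or 18.4% against 4.63% of all genes, and 1 (Il6st, a subunit of the LIF receptor complex) in embryoid bodies only. Other lists gave like counts: 5 of 24 ubiquitously expressed genes (Eef1a1, Gapdh, Hsp90ab1, Ppia and Rpl13a) and 5 of 29 p53 targets (Apaf1, Ddb2, Gadd45a, Plk2 and Polk) were ESC-only at equal length. All 7 naive genes kept end peaks in both full embryoid body lists. The ranks rest on a signal in ESC lists and a fold enrichment in embryoid body lists, in lists of unlike length. A higher rank number in embryoid bodies therefore does not show that the DNA was less open. Fbxo15, long used as an ESC marker, ranked 307th and 792nd in the ESC lists (signals 2667 and 711) and 51430th and 22486th in the embryoid body lists (enrichments 3.31 and 4.17). Klf2, a naive factor sustained by the MEK inhibitor in 2i, ranked 4856th and 1744th in ESCs (signals 954 and 468) and 19183rd and 8625th in embryoid bodies (4.54 and 5.33). Zfp42 (REX1), another naive marker, had an end peak in the upper 5330 of every list: ranks 1582 and 965 in ESCs and 745 and 192 in embryoid bodies.

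The Nanog promoter had a peak in all 4 lists. Nanog encodes a homeodomain factor of the pluripotency network. Its promoter peak had signals of 937 and 270 in the ESC lists and enrichments of 4.71 and 4.63 in the embryoid body lists, and it was present in all 6 lists of C9, H9 and WDR5WT ESCs and in both double knockout embryoid body lists. Its ranks within each list were 5003 and 3779 in ESCs and 16916 and 15432 in embryoid bodies, and these cannot be compared between stages. The promoters of Pax6 and Sox11, neural transcription factors, and of Hesx1, a homeobox gene of the anterior neural plate, had a peak in the embryoid bodies alone among the parental lists. The Pax6 promoter had enrichments of 3.44 and 3.23 and that of Sox11 3.38 and 3.69, each also present in both double knockout embryoid body lists and in 2 of 6 lists of C9, H9 and WDR5WT ESCs. The Hesx1 promoter peak had 5.98 and 6.93 (ranks 5768 and 1526). None of those ESC lists and neither double knockout embryoid body list had a peak in the 250 bases before its start site, the stretch printed below. These 4 promoters, chosen after their values were seen, are printed as the 250 bases before the RefSeq start site (GRCm38.p6), to set a promoter with a peak in every list beside 3 with a peak in embryoid bodies only. Capitals mark matches to the motifs named below. The Hesx1 peak reaches the last bases of its window only and lies mostly downstream.
Nanog, chr6:122707239-122707488, plus strand: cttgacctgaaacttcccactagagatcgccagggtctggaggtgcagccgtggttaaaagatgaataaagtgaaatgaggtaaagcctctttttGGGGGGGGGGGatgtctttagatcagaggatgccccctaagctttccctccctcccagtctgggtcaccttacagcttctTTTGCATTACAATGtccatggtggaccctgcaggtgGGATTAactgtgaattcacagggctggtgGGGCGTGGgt
Pax6, chr2:105668646-105668895, plus strand: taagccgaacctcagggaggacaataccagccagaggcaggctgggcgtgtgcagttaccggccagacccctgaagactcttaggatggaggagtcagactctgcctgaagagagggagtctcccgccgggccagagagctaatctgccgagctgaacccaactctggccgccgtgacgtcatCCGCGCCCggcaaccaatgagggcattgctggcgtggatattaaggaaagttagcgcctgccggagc
Sox11, chr12:27342719-27342968, minus strand: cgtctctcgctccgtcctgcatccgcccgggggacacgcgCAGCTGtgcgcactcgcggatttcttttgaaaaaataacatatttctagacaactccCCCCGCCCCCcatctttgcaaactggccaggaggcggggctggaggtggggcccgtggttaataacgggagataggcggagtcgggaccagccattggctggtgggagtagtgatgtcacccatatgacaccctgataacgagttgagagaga
Hesx1, chr14:27000112-27000361, plus strand: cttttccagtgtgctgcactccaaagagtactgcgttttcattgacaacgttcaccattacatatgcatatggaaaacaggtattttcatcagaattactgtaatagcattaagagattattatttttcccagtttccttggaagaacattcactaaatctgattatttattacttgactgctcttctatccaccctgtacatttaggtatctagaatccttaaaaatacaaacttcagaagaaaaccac

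The 4 sequences differ in base composition. The windows of Pax6 and Sox11 hold 15 and 17 CpG and have a GC content of 60.8% and 58.0%. The Nanog window has 3 CpG and 52.0% GC, and the Hesx1 window 2 CpG and 34.0% GC. The Nanog window holds TTTGCATTACAATG, a match to the composite POU and SOX motif (TTTGCAT, then any base, then ACAATG), beginning 75 bases before the start site. That motif was added after the data were seen. It is held by 2 of the 32851 promoters (both strands), both with a peak in all 4 lists. Nanog itself has 2 start sites among these promoters, so both matches may belong to Nanog, which was not tested. The count therefore does not show the motif in an open promoter other than that of Nanog. The Sox11 window holds the E-box CAGCTG beginning 210 bases before the start site. The other capitals are the KLF letters CCNCNCCC in Nanog, Pax6 and Sox11 and the OTX letters GGATTA in Nanog, the latter found in 7.06% of all promoters of the table. A match is a description of the letters and not a shown binding site.

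Over the whole promoter table, open promoters were CpG-rich in both stages. Of 32851 promoters of 300 bp (250 before to 50 after the start), 2604 had a peak in all 4 lists, 6081 in the embryoid bodies only (18.5%), 138 in ESCs only (0.42%) and 16410 in none. The median number of CpG was 24 in the first set, 18 in the embryoid-body-only set, 20 in the ESC-only set and 3 in promoters without a peak. The lower quartile was 18 for promoters in all 4 lists, 9 for embryoid-body-only promoters and 8.25 for ESC-only promoters. The motif CCNCNCCC, which KLF factors bind, was in 76.4% of promoters open in all 4 lists, 71.0% of embryoid-body-only, 64.5% of ESC-only and 28.9% of those without a peak, against 49.5% of all. The E-box CAGCTG, which proneural factors bind, was in 18.0% of embryoid-body-only, 12.6% of all-4 and 5.80% of ESC-only promoters and 16.7% of those without a peak, against 16.3% of all. At equal list length the embryoid-body-only share was 14.4% for CAGCTG, below that of all promoters, and for CCNCNCCC 64.7%, below the 80.0% of ESC-only promoters. The octamer ATTTGCAT was in 1.17% to 2.00% of every set, against 1.74% of all. Motifs were searched on both strands, may overlap each other, and the KLF letters are mostly C, so base composition bears on them.

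Beyond promoters, embryoid-body-only regions were also counted per gene. Each region was given to the closest protein-coding gene, measured to the gene's nearer end and at most 100 kb away. The median gene of the formative and Wnt lists had 5 embryoid-body-only regions, against 1 for all genes. It had 4 in the core pluripotency, neuroectoderm, eye field, trophectoderm, FGF, and Notch and Hedgehog lists. The naive list had 2.5, the Hox clusters 1 and ubiquitously expressed genes 0. Gene density and gene length bear on these numbers, and their part was not tested. The genes with the most were Bcor and Igsf21 (20 each), Casz1 (19), Maml3, Phactr3, Prex1 and Tle3 (18 each) and Gli2 (17), all but Tle3 over 100 kb long. Pax2, a regulator of optic stalk and kidney, had 17, Meis1 14 and Meis2 13 (cofactors of homeodomain proteins), Dnmt3a (a de novo DNA methyltransferase) 12 and Tcf7l1 (a repressor of Wnt targets) 12. Esrrb, a naive factor, had 13.

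Many of these regions had no peak in any ESC list of the series. Of the 42523 embryoid-body-only regions, 29300 (68.9%) were absent from all 12 ESC lists, and 16775 of those (39.4% of the 42523) were also in both double knockout embryoid body lists. A smaller set of 4173 (9.81%) was in at least 5 of the 6 lists of C9, H9 and WDR5WT ESCs, so it was missing from the parental ESC lists but not from ESCs. With the stricter definition, 24 of 29 formative genes, 25 of 30 eye field genes and 18 of 20 FGF pathway genes had at least 1 region absent from all ESC lists and present in all 4 embryoid body lists, against 35.3% of all genes. It was also 15 of 22 for core and 23 of 38 for naive pluripotency. For ubiquitously expressed genes it was 4 of 24 and for COMPASS and MLL subunits 2 of 20.

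At Fgf5, the growth factor gene of the formative state, 4 regions were found only in embryoid bodies. All 4 were absent from all 12 ESC lists, against 68.9% of all embryoid-body-only regions. Fgf5 lies at chr5:98254184-98277033. The strongest of the 4 was chr5:98293047-98293993, 16014 bp beyond the gene, with enrichments of 6.88 and 8.37 and ranks of 2251 and 211. Others lay 6728 bp (5.23 and 4.89) and 25538 bp (4.34 and 4.44) beyond the same end. These 3 regions were present in both double knockout embryoid body lists, as were 67.4% of all embryoid-body-only regions. The fourth, 6215 bp from the other end (2.87 and 3.49), was in neither. An end peak of Fgf5 itself was also in ESC replicate 1 (signal 225) and in all 6 lists of C9, H9 and WDR5WT ESCs. The flanking regions, unlike the gene end, had no peak in any ESC list.

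Otx2, a homeobox gene of the formative state and later of forebrain and eye, lies at chr14:48656781-48667644. All 8 embryoid-body-only regions assigned to it were absent from all 12 ESC lists, against 68.9% of such regions in all. Of the 8, 5 were in both double knockout embryoid body lists, against 67.4% of such regions. The strongest, chr14:48738128-48738625, had enrichments of 5.55 and 5.30 and lay 70484 bp from the gene. At Lhx2 (chr2:38339271-38369737) 6 of 8 regions were absent from all ESC lists, at Pou3f1 (a POU factor of the formative state and neural progenitors) 10 of 10, at Six3 6 of 6, at Pax2 15 of 17 and at Bmp4 8 of 8. At Sox2 it was 5 of 8, at Sox1 4 of 9 and at Pax6 2 of 4. These genes were picked from the marker and list genes after their values were seen. Of the Six3 regions 2 of 6 were in both double knockout embryoid body lists, and of the Bmp4 regions 7 of 8, against 67.4% of all such regions. The same count was 5 of 10 at Pou3f1, 8 of 17 at Pax2 and 7 of 8 at Lhx2. At Sox2 it was 5 of 8, at Sox1 7 of 9 and at Pax6 3 of 4.

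**Figure D5:**
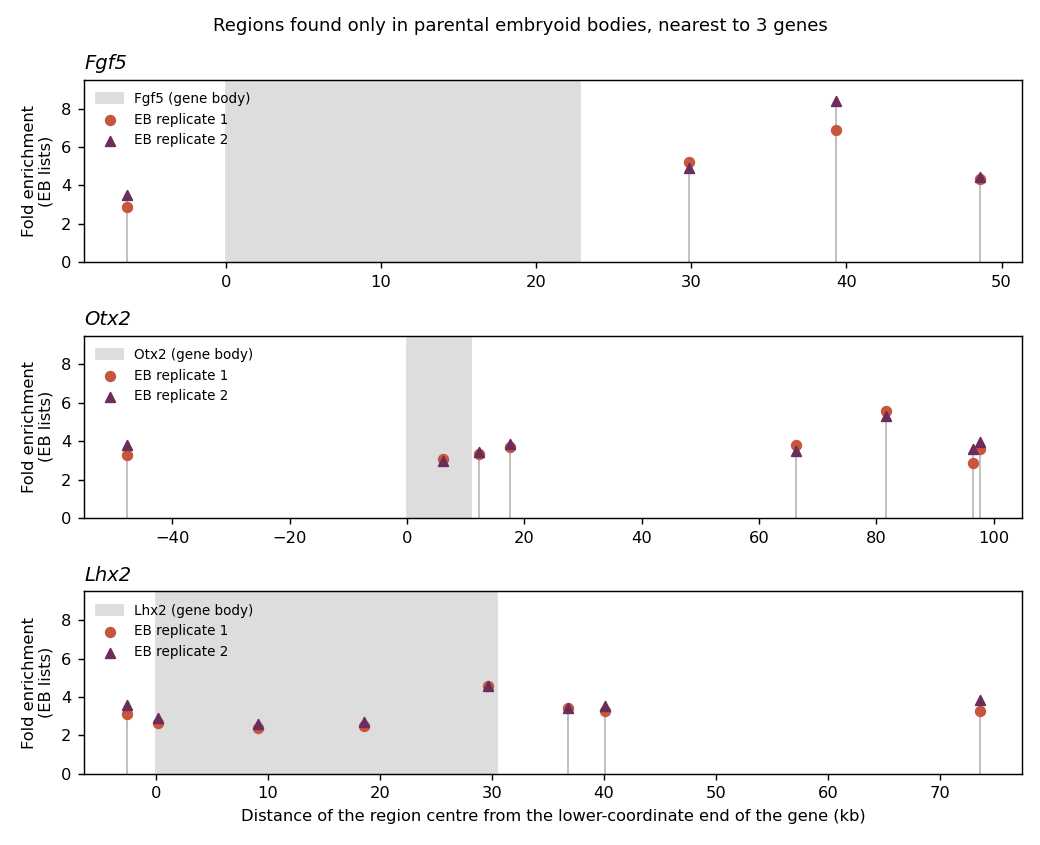
Regions found in both parental embryoid body (EB) lists and neither parental ESC list around Fgf5, Otx2 and Lhx2. The x axis is the distance of each region's centre from the gene's lower-coordinate end in kb, the y axis its fold enrichment in the 2 EB lists, and the grey band the gene body. Near Fgf5 the highest region (6.88 and 8.37) lies beyond the gene, and near Otx2 the highest (5.55 and 5.30) lies over 70 kb away.

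At Esrrb, a naive factor, the stage-only regions were those of the embryoid bodies. It lies at chr12:86361117-86521628. Of its 13 embryoid-body-only regions, 8 were absent from all 12 ESC lists, against 68.9% of such regions in all. In both double knockout embryoid body lists were 8 of the 13, against 67.4% of such regions. Only 3 of the 13 met both conditions. The strongest of the 13, chr12:86433305-86433708, had enrichments of 5.72 and 4.98 and was in 2 of the 10 other ESC lists. Its end peak was weak (2.78 and 3.24, ranks 78132 and 48851). No C9, H9 or WDR5WT ESC list and no double knockout embryoid body list had a peak at its ends.

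The 1207 strongest embryoid-body-only regions were those in the upper 5330 of both embryoid body lists and in no full parental ESC list. Of these, 13.9% were at gene ends, 34.9% inside genes and 51.2% outside, against 15.3%, 39.5% and 45.2% of all embryoid-body-only regions. In both double knockout embryoid body lists were 97.3%, against 67.4%. Of the 1207, 581 (48.1%) were absent from all 12 ESC lists, against 68.9% of all embryoid-body-only regions. Of those 581, 3.27% were at gene ends, against 9.12% of the 29300 such regions in all. Another 286 (23.7%) were in at least 5 of the 6 lists of C9, H9 and WDR5WT ESCs, against 9.81%. The strongest regions were thus absent from all ESC lists less often than embryoid-body-only regions in general. By the worse of its 2 ranks the strongest was chr2:46506916-46507487, with enrichments of 11.0 and 9.69 and ranks of 4 and 21, 1389474 bp from the nearest protein-coding gene end, that of Zeb2. Others of the 10 strongest were chr10:16475086-16475652 (9.97 and 9.76), 1247576 bp from Cited2, and chr1:145065228-145065778 (10.8 and 9.49), 289801 bp from Rgs18. All 10 were in both double knockout embryoid body lists, and 6 of them in no ESC list. Strong regions assigned to gene list members included those near Sox1 (6.72 and 7.13), Gli3 (7.60 and 7.19), Jarid2 (6.75 and 6.97), Six6 (6.15 and 6.17), Hesx1 (6.65 and 6.43) and Etv1 (7.85 and 6.53), none of them in any other ESC list and all in both double knockout embryoid body lists. Strong regions near Cdh11, Fgf5, Lifr, Myc, Pcgf5, Smad1, Spry1 and Trp63 had the same pattern, so it was not confined to neural genes. Those near Spry2 (7.48 and 7.26) and Meis1 (6.62 and 5.86) were in all 6 lists of C9, H9 and WDR5WT ESCs. The gene list members named here were picked after their values were seen.

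The ESC-only regions were a mixed set. Of the 1653, 372 (22.5%) lay in 30 windows of 100 kb where the backbone ESC list of replicate 1, the shortest of the series, had at least 10 peaks, and 1105 (66.8%) were in none of the 6 lists of C9, H9 and WDR5WT ESCs. Only 18.5% had any embryoid body peak within 5 kb. The strongest were chr1:24611482-24616229 (signals 140856 and 116806), chr9:3009161-3038380 (117516 and 118206), chr17:39842940-39848887 (48493 and 48598) and chr11:3184132-3200071 (41186 and 40833), all in every other ESC list and in neither double knockout embryoid body list. The names of the embryoid body lists carry a tag that can be read as removal of blacklisted regions and those of the ESC lists do not. At such places a closed region in embryoid bodies and a removed one cannot be told apart. The genes with the most ESC-only regions were Gm15319 (47), Atg7 and Gm52481 (25 each), Hrh1 (24), Gm21119 (22), Gm40469 (21), 4930467E23Rik (20) and 9530057J20Rik (18), on chromosomes 8, 6 and Y. Of the 131 genes with an ESC-only end peak, 67 have predicted or clone names, and 2 had an end peak in either double knockout embryoid body list.

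A smaller ESC-only set was shared with the other ESC lists. Outside those 30 windows (the dense windows), 337 ESC-only regions were in at least 5 of the 6 lists of C9, H9 and WDR5WT ESCs. Of the 337, 274 were in neither double knockout embryoid body list and 18.7% were in at least 1. Of all 1653 ESC-only regions, 1568 were in neither and 5.14% in at least 1. The 337 included 2 regions near Jam2, a junctional adhesion molecule: chr16:84768803-84770347 (signals 2071 and 539) and chr16:84778539-84780274 (2454 and 695). They also included chr3:133524464-133525255 near Tet2, a 5-methylcytosine dioxygenase (1244 and 409), chr11:109011593-109012174, 60810 bp from Axin2, a feedback inhibitor and target of Wnt signalling (3615 and 3558), chr13:44869520-44870069 near Jarid2, a Polycomb cofactor (1653 and 1547), chr5:53466604-53467501 near Rbpj, the effector of Notch (1332 and 533), and chr2:34904746-34905535 near Phf19, a Polycomb subunit (1264 and 448). Neither double knockout embryoid body list had a peak in any of these 7 regions, and those near Axin2 and Jarid2 were in all 10 other ESC lists. Those near Dppa2, chr16:48303281-48304315 (1149 and 201), and Zfp42, chr8:43305626-43306119 (576 and 266), were in all 6 lists and in both double knockout embryoid body lists. The genes were picked from the gene lists after their values were seen. The highest-ranked of the 337 regions were chr1:24611482-24616229, chr9:3009161-3038380 and chr17:39842940-39848887, already named above. For the regions in neither double knockout embryoid body list, a closed region and a removed one cannot be told apart here either. The Eef2 end peak (signals 491 and 407) was in 5 of the 6 lists and in neither double knockout embryoid body list.

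Because ESC replicate 2 is short, ESC replicate 1 together with at least 5 of those 6 lists was also used, a definition chosen after seeing the data. It gave 2215 regions absent from both parental embryoid body lists, outside the dense windows, of which 9.39% were at gene ends and 64.0% outside genes. Of these, 1492 were in neither double knockout embryoid body list and 32.6% were in at least 1. The latter share was 14.3% of all 8076 regions of ESC replicate 1 that both parental embryoid body lists lacked. The naive list (38 genes) had 13 of them in all, the core list (22) 10 and the formative list (29) 0. The neuroectoderm (42) and eye field (30) lists had 7 each, and all 21887 genes had 1402. The 2215 regions included 2 near Gdf3 (signals 421 and 977), a Nodal-related ligand of pluripotent cells, and 1 near Tfcp2l1 (742), a naive factor. They also included 3 near Lgr4 (461, 420 and 358), an R-spondin receptor. Both Gdf3 regions and the Lgr4 region of signal 358 had a peak in 1 double knockout embryoid body list. Pax6 had both kinds, with 2 ESC regions of this set (625 and 602) and 4 embryoid-body-only regions. The first of these ESC regions also had a peak in 1 double knockout embryoid body list.

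MicroRNA loci of pluripotent and neural cells were also read. The miR-290 and miR-302 clusters are expressed in pluripotent cells, and miR-9 is a neural microRNA. Of 1005 RefSeq hairpins, 125 had a peak within 1 kb in both embryoid body lists only (12.4%), 1 in both ESC lists only (0.0995%) and 15 in all 4. The loci below were chosen after their values were seen. The sequences are shown because the miR-290 and miR-302 clusters have members that share a seed (bases 2 to 8, in capitals) while miR-9 has another.
mmu-miR-291a-3p: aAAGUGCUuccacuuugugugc
mmu-miR-294-3p: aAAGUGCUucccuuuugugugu
mmu-miR-295-3p: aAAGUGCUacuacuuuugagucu
mmu-miR-302b-3p: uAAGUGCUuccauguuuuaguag
mmu-miR-302d-3p: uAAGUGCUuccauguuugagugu
mmu-miR-9-5p: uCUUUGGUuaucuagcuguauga

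The first 5 share the seed AAGUGCU, and the seed of miR-9-5p is CUUUGGU. In the miR-290 cluster on chromosome 7, the region chr7:3218715-3219805 had a signal of 896 in ESC replicate 1 and no peak in ESC replicate 2, in the parental embryoid bodies or in the double knockout embryoid bodies, and it was in 1 of the 6 lists of C9, H9 and WDR5WT ESCs. Among the parental lists the neighbouring region chr7:3217570-3217952 was found in the embryoid bodies only (4.76 and 5.34), and it too was in 1 of the 6 ESC lists. The cluster's regions chr7:3213482-3213911 and chr7:3221164-3222602 were in ESC replicate 1 (309 and 250) and in both parental embryoid body lists. Their enrichments there were 3.90 and 3.30 for the former and 2.42 and 2.66 for the latter. At the miR-302 cluster on chromosome 3, the region chr3:127544660-127545220 was in ESC replicate 1 (579), both embryoid body lists (4.79 and 4.61) and 5 of the 6 ESC lists, and 2 flanking regions were in the embryoid bodies only (3.58 and 3.68, and 2.70 and 3.27). All 3 hairpins of miR-9 had a peak within 1 kb in both parental and both double knockout embryoid body lists and in neither parental ESC list. At Mir9-1 that region was in none of the 6 ESC lists (3.65 and 3.17), and at Mir9-2 it was in 5 of them (2.61 and 2.97). Mir92b, whose mature 3p strand shares the seed of miR-367, had a region over the hairpin in embryoid bodies only (3.35 and 3.82) and in none of the 6 ESC lists.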

How the data were processed

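The authors deposited 1 ATAC-seq peak list per library, with coordinates on mm10. The submitters' processing notes name MACS2 2.1.2, Genrich 0.6, DESeq2, Bowtie2 2.3.5 and SAMtools without their roles. The deposited ESC lists give a score, a signal of unstated scaling and a −log10 p, and the deposited embryoid body lists a score, a fold enrichment (ratio) and −log10 p and q values. The signal and the ratio ranked peaks within a list. The lists hold no counts, so depth is unknown.

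Regions were built by merging peaks that overlapped by 1 bp, on the autosomes, X and Y, with Python 3.11.15, numpy 2.4.6 and pandas 2.3.3. A stage-only region is in both lists of a stage and neither of the other, and such counts have no test. Values per library were tested by exact permutation (two-sided). Genes are the 21887 protein-coding genes of RefSeq GRCm38.p6 (the build of mm10), and promoters, which cover 79.9% of them, and microRNAs are from the same tables. The 23 gene lists hold 600 genes, all matched by symbol or synonym.

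Named genes are Rax, Pou5f1, Sox2, Wdr5 and Trp53; per list, genes with a stage-only end peak (up to 6 a direction) and up to 3 with the most stage-only regions; the 8 genes with the most regions; and the 10 highest-ranked stage-only regions per direction. Others are said to be chosen after their values were seen, or come from the marker lists. The members, lists and rules were chosen with earlier results of these data known. The merging and the tests were tested on simulated lists.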

Additional observations from a re-analysis of the deposited data

Results flagged for a closer look

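The 2 parental ESC lists also held peaks on sequences other than chromosomes 1 to 19, X and Y, 47 in replicate 1 and 34 in replicate 2, and the embryoid body lists held 0. These peaks enter no comparison above. They were picked out because a signal appeared in data that the comparisons do not use.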

How the results depend on the processing

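The difference between stages in the other 12 lists kept its direction in all 13 alternatives, from 63.5 (regions from the 5330 highest parental peaks, other lists in full) to 112 (upper 50% by p) percentage points, and missed the threshold against p53 knockout ESC lists (84.5 points, where the smallest p is 0.0667). The gene-end share turned from -20.7 to 0.629 points at equal list length and kept its sign otherwise. ESC-only regions numbered 1013 when required to be high in their own lists, 833 in the upper 50% of each list by p, and 337 when also in 5 of 6 other ESC lists. Embryoid-body-only regions numbered 2509 at equal length, 1207 when high in their own lists, 25722 in the upper 50% and 16775 when absent from all ESC lists and in both double knockout lists. Regions in all 4 lists numbered 784 at equal length and 1429 in the upper 50%. ESC-only gene ends numbered 1014 at equal length, 86 when high in their own lists and 80 in the upper 50%, and embryoid-body-only gene ends 1010, 178 and 7200 under the same 3. Equal length and the upper 50% hold fewer peaks by construction, and the cause of the higher 7200 (5443 in full lists) was not tested. The alternatives that use the other lists to define regions were chosen after seeing the data. These are the 337 and 2215 regions of ESCs and the 29300 and 16775 of embryoid bodies.

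Leaving out 1 list gave 1681 to 8171 ESC-only regions and 42531 to 74969 embryoid-body-only regions, 3007 to 14402 in all lists, 133 to 337 and 5447 to 11416 gene ends, 0.531 to 1.19 in log10 peak number, -25.4 to -15.9 points in gene-end share and 85.6 to 95.3 points in the other lists. The highest counts came without ESC replicate 2 for ESC-only regions, regions in all lists (14402) and ESC-only gene ends (337), without ESC replicate 1 for embryoid-body-only gene ends (11416) and without embryoid body replicate 2 for embryoid-body-only regions. Libraries with the same replicate number share only that number (their replicate differences correlated at r = -0.068 across regions, over 2 pairs). With replicate number as a block the differences in log10 peak number (0.861) and gene-end share (-20.7 points) both had p = 0.5 by exact sign-flip permutation, the smallest 2 pairs allow, and the block changed no call. Depth is unknown, so absence from a list is not absence of open chromatin.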
